A study of Mus musculus with 16 samples.

Results

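The regions described here are narrow stretches of chromatin carrying trimethylated lysine 4 of histone H3 (H3K4me3) that have trimethylated lysine 36 (H3K36me3) close by. Peaks of the 4 H3K4me3 libraries were merged into 20660 regions, of which 14489 held a peak in every library. Of these, 13714 were under 4000 bp wide after merging, and 11065 of those were touched by no island of trimethylated lysine 27 (H3K27me3) in the 5 libraries counted for that mark. An H3K36me3 peak lay within 5 kb in 3 or more of 5 libraries at 4852 of them, 23.5% of all merged regions and 43.9% of the narrow H3K27me3-free ones. These 4852 are called flanked regions, and the other 6213 narrow H3K27me3-free regions are called unflanked. The regions were thus selected on measured values of the 3 marks themselves, so the presence of H3K4me3 and H3K36me3 and the absence of H3K27me3 are given as a description.

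The 3 marks were mapped by chromatin immunoprecipitation and sequencing (ChIP-seq) in hematopoietic stem cells sorted from the bone marrow of wild-type C57BL/6 mice with the gate SP-KSL-CD150+ (CD150 is a surface marker of these cells). Cells of 24-month-old mice were compared with cells of 4-month-old mice, and the labels name no treatment or mutant allele. H3K4me3 (a Millipore antibody) had 2 libraries at 24 months, replicates 7 and 8, and 2 at 4 months, also numbered 7 and 8. H3K36me3 (an Abcam antibody) had 3 libraries at 24 months, replicates 4, 5 and 6, and 3 at 4 months with the same numbers. H3K27me3 (a Millipore antibody) had 3 libraries at 24 months and 3 at 4 months, replicates 1, 2 and 3 at each age. The labels give every library a biological replicate number but call it a technical replicate, and they do not say how many mice were pooled. The p-values therefore measure the spread between these libraries, which may be partly technical.

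H3K4me3 is written by SET1 and MLL enzyme complexes at the start sites of genes that are active or ready for use. H3K36me3 is written by SETD2, which travels with elongating RNA polymerase II, so the mark lies over the bodies of transcribed genes and usually begins some distance inside them. H3K27me3, written by Polycomb complex 2, covers repressed genes, many of which encode developmental regulators in stem cells.

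The combination of marks is the one usually seen at starts of active genes, but whether each flanked region is a promoter was not checked, because coordinates are those of the mouse build mm9 and no annotation of that build was used here. For the same reason the regions carry positions, not gene names, and the sorted cell type was not checked against marker genes. H3K4me3 lists held 16258 to 19923 peaks. H3K36me3 lists were less even: they covered 68.5, 100 and 100 Mb at 24 months in replicates 4, 5 and 6, against 41.6 and 138 Mb at 4 months in replicates 5 and 6. The H3K36me3 library of 4-month replicate 4 covered 5.90 Mb and stood apart, and so did the H3K27me3 library of 4-month replicate 1, whose islands touched 1.48% of shared H3K4me3 regions against 12.5% to 15.3% for the other 5. Both were left out of the choice of regions. Read depth is not given in the sources used here, and in sorted bulk cells fewer marked cells and less of the mark per cell cannot be told apart.

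Flanked regions were short and similar in size. Their merged width had a median of 2131 bp (quartiles 1768 and 2608 bp), against 1972 bp in unflanked regions. The widest, on chromosome 11 from 69732430 to 69736426 and on chromosome 4 from 43589040 to 43593036, each spanned 3997 bp. The narrowest, on chromosome 12 from 70675215 to 70675851, spanned 637 bp and still had H3K36me3 nearby in all 5 libraries. Just outside the width limit lay a region of 4001 bp on chromosome 7 from 52381330 to 52385330, also with H3K36me3 in all 5 libraries. For the limit on H3K36me3, 906 flanked regions had exactly 3 libraries with a peak within 5 kb and 787 unflanked regions had exactly 2. All 5 libraries had one at 2588 flanked regions, 53.3%.

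Each H3K36me3 library contributed a different share of that count. A peak lay within 5 kb of 65.7%, 88.8% and 95.5% of flanked regions at 24 months (replicates 4, 5 and 6), against 85.8% and 98.8% at 4 months (replicates 5 and 6). In the window of the region and 5 kb on each side, the median length under H3K36me3 was 975, 1916.5 and 2185.5 bp at 24 months, against 766.5 and 2902.5 bp at 4 months. The order followed the length covered by each whole list, with a 4-month library at either end. H3K4me3 itself covered a median of 1669 and 1914 bp of a flanked region at 24 months (replicates 7 and 8), against 1907 and 1743 bp at 4 months, so the ages overlapped.

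The amount of H3K36me3 varied widely among flanked regions. By the mean over the 5 libraries, the most lay around a region on chromosome 5 from 111081150 to 111083773, with 6913, 9337 and 9874 bp at 24 months, against 5861 and 10285 bp at 4 months. Next came a region on chromosome 19 from 9040593 to 9043179, with 6725, 9591 and 9941 bp at 24 months, against 5712 and 10201 bp at 4 months. Most of the window was under H3K36me3 in 4-month replicate 6 at both regions, and the ages overlapped. At the other end, a region on chromosome 11 from 105894680 to 105895540 had 0, 44 and 74 bp at 24 months, against 0 and 200 bp at 4 months. That region met the rule with 3 libraries, and another flanked region, of 762 bp, lay 899 bp away.

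Within 5 kb, H3K36me3 lay to one side of most flanked regions. At that distance, only a single side reached 3 or more libraries at 4015 of 4852 regions (82.7%), called one-sided here. That side had the lower coordinates at 1962 of them and the higher coordinates at 2053. The other side of a one-sided region could still be marked in fewer than 3 libraries. Both sides reached 3 libraries at 783 regions (16.1%), and no side did at 54. Within 2 kb, only a single side reached 3 or more libraries at 45.3% of the 4852 regions. No more than 2437 of the 4852 had H3K36me3 within 2 kb in 3 or more libraries at all. Taken alone, the libraries of 24-month replicates 4, 5 and 6 had the mark on a single side at 59.1%, 74.8% and 76.6%. Those of 4-month replicates 5 and 6 had it so at 70.8% and 74.1%. The mark seldom overlapped the H3K4me3 itself: peaks touched 2.72%, 6.99% and 7.75% of flanked regions at 24 months (replicates 4, 5 and 6), against 4.33% and 13.5% at 4 months (replicates 5 and 6). At the one-sided regions the median gap from the H3K4me3 edge to the nearest H3K36me3 peak on the marked side was 3304, 2304 and 1945 bp at 24 months, against 2553.5 and 1452.5 bp at 4 months. The gap was longest in the library of 24-month replicate 4 and shortest in that of 4-month replicate 6, which covered the most sequence.

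Where both ages had a mark on one side only, it was nearly always the same side. Sides were first set by 24-month libraries alone, at 2074 regions where all 3 had H3K36me3 on one and the same side. The library of 4-month replicate 5 then had H3K36me3 on that side only at 1772 of them (85.4%) and on the opposite side only at 8. The library of 4-month replicate 6 had it on that side only at 1905 (91.9%) and on the opposite side only at 0 of 2074. Setting the side with both 4-month libraries (2921 regions) also left few opposite sides. The 24-month libraries had the mark on that side only at 1879 (64.3%), 2489 (85.2%) and 2702 (92.5%) regions for replicates 4, 5 and 6, and on the opposite side only at 4, 4 and 2. They had it on neither side at 1017 (34.8%), 391 (13.4%) and 156 (5.34%), so a missing peak was far more frequent than a change of side.

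Coverage by distance showed how far the mark ran. The rule asks for a peak within 5 kb, so the height there is partly fixed. Sides were set within 5 kb by libraries of the other age, so the contrast of sides there is partly fixed too. Neither step looked beyond 5 kb, but a peak counted within it can run further. In the bin from 4 to 5 kb on the marked side, 35.6%, 53.5% and 57.2% of the sequence lay under H3K36me3 at 24 months (replicates 4, 5 and 6), against 31.5% and 73.7% at 4 months (replicates 5 and 6). From 29 to 30 kb the values were 12.5%, 19.2% and 20.1% at 24 months, against 8.85% and 25.5% at 4 months. On the other side, from 29 to 30 kb, 7.25%, 11.9% and 12.7% lay under the mark at 24 months, against 5.25% and 15.6% at 4 months. In every library the marked side therefore kept more H3K36me3 than the other side out to 30 kb, and 24-month and 4-month libraries interleaved.

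**Figure D1:**
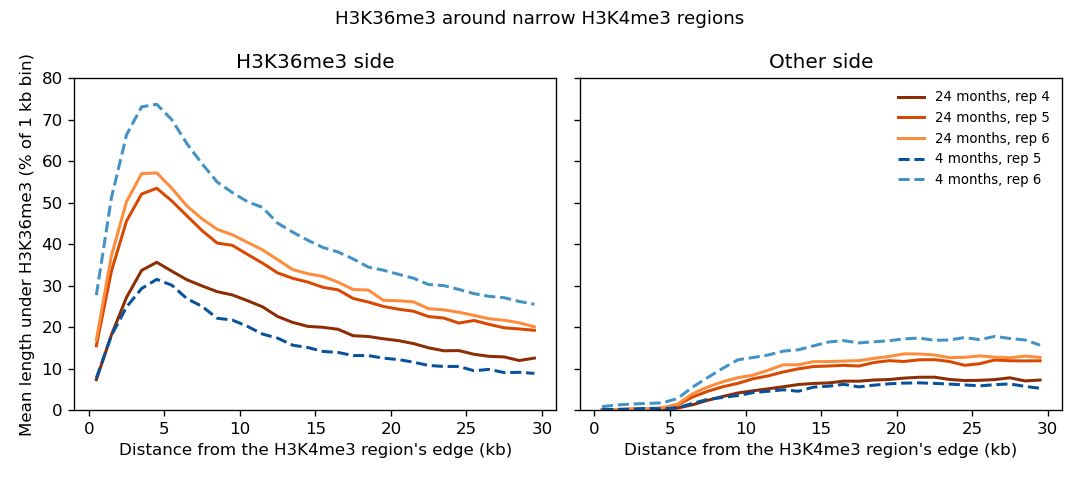
Mean length under H3K36me3 in 1 kb bins, as a percentage of the bin, against the distance in kb from the edge of flanked regions, on the marked side and on the other side. Each line is a library (solid, 24 months; dashed, 4 months), with sides set by the libraries of the other age (2921 regions for 24-month and 2074 for 4-month lines). All 5 lines are highest from 4 to 5 kb on the marked side, and in that bin the 4-month lines are the highest and the lowest.

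In the 5 libraries counted, H3K27me3 islands lay more often near the side where H3K36me3 did not reach 3 libraries. At the 4015 one-sided regions, an H3K27me3 island lay within 10 kb on the H3K36me3 side at 2.42%, 2.04% and 2.67% in 24-month replicates 1, 2 and 3, and on the other side at 13.4%, 10.4% and 15.3%. In 4-month replicates 2 and 3 the shares were 2.29% and 2.91% on the H3K36me3 side, and 8.32% and 14.0% on the other side. The difference of the H3K36me3 side minus the other side averaged -9.83 ± 2.63 percentage points (SD, n = 5 libraries) and was negative in all 5. It is given with no test, because the sides come from H3K36me3 and the absence of H3K27me3 in the region was part of the rule. In the 4-month library that stood apart the shares were 1.79% on the H3K36me3 side and 1.89% on the other side. With it included the difference averaged -8.21 ± 4.62 points (SD, n = 6). With sides set by the other age, differences in the 5 libraries ranged from -14.0 to -7.18 points.

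**Figure D2:**
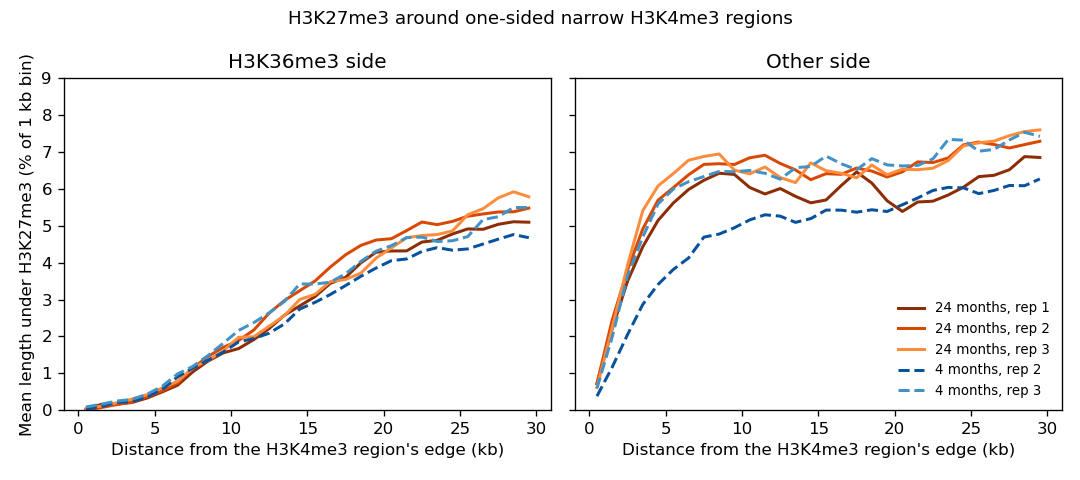
Mean length under H3K27me3 islands in 1 kb bins, as a percentage of the bin, against the distance in kb from the edge of the 4015 one-sided flanked regions, on the H3K36me3 side and on the other side. Each line is 1 of the 5 libraries counted (solid, 24 months; dashed, 4 months), without 4-month replicate 1. From 9 to 10 kb, in these 5, the H3K36me3 side had between 1.55% and 1.82% and the other side between 4.95% and 6.66%.

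H3K4me3 peaks of flanked regions carried high scores. The peak score the authors deposited has a ceiling near 3100, which few peaks exceed, and it ranks peaks within a list only. A score at or above 3100 was reached by 83.5% and 83.8% of flanked regions in 24-month replicates 7 and 8, against 62.8% and 63.2% of unflanked regions. In 4-month replicates 7 and 8 the shares were 83.8% and 84.6% in flanked regions, against 63.2% and 63.8% in unflanked regions. The difference was 20.7 ± 0.138 percentage points (SD, n = 4 libraries), and the exact two-sided sign-flip test over libraries gave p = 0.13, the smallest that 4 libraries allow. The median score percentile, by contrast, was equal in the 2 sets in every library, since the median of each set sits at the ceiling: its difference was 0 (exact permutation p = 1). All 4 libraries reached the ceiling at 3848 flanked regions (79.3%), against 3544 unflanked regions (57.0%).

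Most of the difference in the share at the ceiling lay between regions with no H3K36me3 library nearby and regions with 1. With none it was 56.5% to 57.2% over the 4 H3K4me3 libraries, with 1 it was 77.3% to 78.6%, with 2 it was 77.3% to 80.1%, with 3 it was 78.5% to 80.6% and with all 5 it was 86.6% to 87.1%. Width moved with the score as well. Its median was 1892.5 bp with no H3K36me3 library nearby, against 2085.5 to 2179 bp with 1 to 5. How far width accounts for the step from none to 1 was not tested. Below 1500 bp, 30.8% to 34.0% of flanked regions were at the ceiling, against 8.09% to 9.31% of unflanked regions. From 1500 to 2000 bp the shares were 77.9% to 80.6% in flanked regions, against 58.6% to 62.7% in unflanked regions. From 2500 to 4000 bp they were 96.5% to 97.2%, against 95.4% to 96.6%. The sets were thus far apart among the narrower regions and close in the widest class, where nearly all regions of both sets were at the ceiling.

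**Figure D3:**
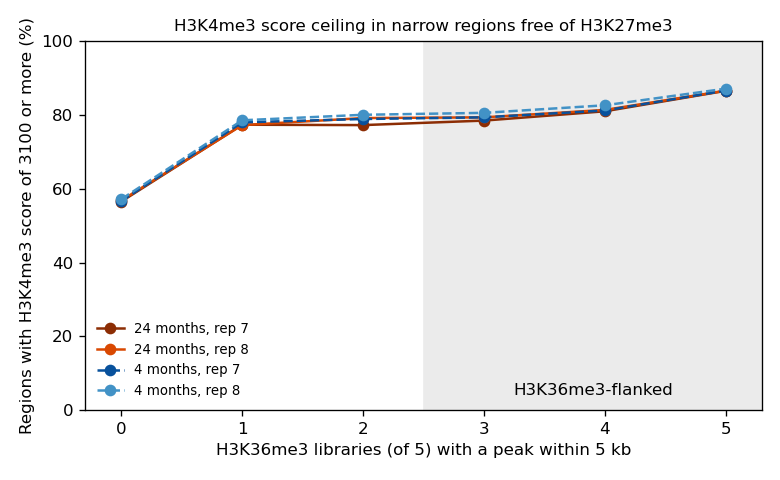
Share of narrow H3K27me3-free regions whose H3K4me3 score was 3100 or more, in percent, against the number of H3K36me3 libraries (0 to 5) with a peak within 5 kb. Each line is an H3K4me3 library (solid, 24 months; dashed, 4 months), and the shaded part holds the flanked regions. All 4 lines start between 56.5% and 57.2% and end between 86.6% and 87.1%.

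Flanked regions were scarce on the X chromosome. Of 416 narrow H3K27me3-free regions on X, 38 were flanked (9.13%), against 4813 of 10645 on the autosomes (45.2%), where single chromosomes ranged from 36.6% on chromosome 18 to 56.6% on chromosome 17. An H3K36me3 peak lay within 5 kb of 4.09%, 6.01% and 14.4% of X regions at 24 months (replicates 4, 5 and 6), against 31.0%, 43.0% and 47.5% of autosomal regions. At 4 months (replicates 5 and 6) it was 9.86% and 25% on X, against 42.2% and 57.0% on autosomes. H3K4me3 scores were also lower there: 56.3% and 58.4% of X regions were at the ceiling at 24 months, against 72.5% and 72.8% of autosomal regions, and 50.7% and 52.9% at 4 months, against 73.0% and 73.7%. Among regions at the ceiling in all 4 libraries, 23 of 179 on X were flanked (12.8%), against 3824 of 7210 on autosomes (53.0%). X held 3.08% to 3.22% of the peaks in the H3K4me3 lists. It held 0.513% to 1.57% of H3K36me3 peaks and 0.598% to 0.756% of H3K27me3 islands in the 5 lists counted for each. Having few peaks on X was thus not particular to H3K36me3. The shares of flanked regions rest on values that the choice used and carry no test. The sex of the mice is not in the labels. On the Y chromosome, 4 narrow H3K27me3-free regions held an H3K4me3 peak in all 4 libraries, and 1 of them was flanked. Whether the cells were male, and so the number of X copies behind the X shares, was not tested.

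**Figure D4:**
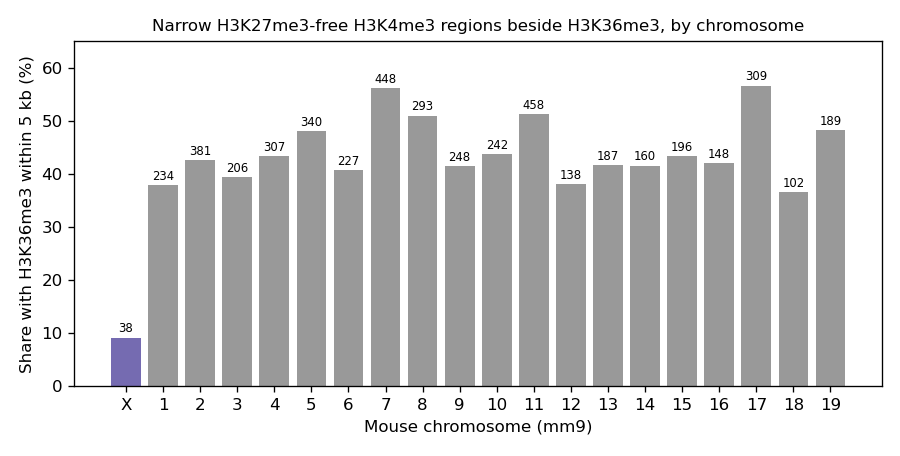
Share of narrow H3K27me3-free H3K4me3 regions that were flanked by H3K36me3, in percent, by mouse chromosome, with the number of flanked regions above each bar. The X bar stands at 9.13% and the autosomes between 36.6% and 56.6%.

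The study asks how these marks differ between old and young stem cells. The length of a region under peaks, in bp, was compared as log2(length + 200 bp), and a positive change means longer at 24 months. For H3K4me3, limma called 0 of 4852 flanked regions at an adjusted p below 0.05, against a background of 0% of 17307 regions tested. In simulated data with the spread of these libraries, it recovered 20 of 100 regions at a log2 change of 1. At a change of 3 it recovered 74 of 100. The lack of calls thus cannot show that H3K4me3 was unchanged. No flanked region had an adjusted p under 0.348 in limma. With limma's p unadjusted and below 0.05, there were 51 flanked regions longer (1.05%) and 50 shorter (1.03%) at 24 months, against a background of 6.04% and 1.2%. Regions tested needed a peak in only 2 of the 4 libraries, but flanked regions in all 4. Regions with peaks at a single age thus count in the background alone. Differences from the background here and below are therefore partly fixed by the choice of regions. Their median change was -0.02, against 0.01 over all regions tested, and 3 of them changed by more than 1 on the log2 scale. Within the libraries whose titles share the number 18, 1 at each age, the median was -0.15. Every 24-month library exceeded every 4-month library at 529 flanked regions (10.9%), and the reverse held at 795 (16.4%), against backgrounds of 16.5% and 14.6%. With each library centred on its own median, those shares were 18% and 16.9%, against 22.3% and 14.8% of all regions tested.

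The regions that follow were picked for the largest changes among the 529 flanked regions with longer and the 795 with shorter H3K4me3 in every 24-month library. On chromosome 3 from 144421772 to 144424818, H3K4me3 covered 2477 and 3047 bp at 24 months, against 802 and 701 bp at 4 months. The ages did not overlap, with a log2 change of 1.63 ± 0.17 (SE), but limma's adjusted p was 0.348. On chromosome 16 from 33755232 to 33758773, the lengths were 3345 and 3429 bp at 24 months, against 1729 and 986 bp at 4 months (log2 change 1.25 ± 0.25, adjusted p = 0.348 in limma). In the other direction, a region on chromosome 14 from 61351280 to 61353274 had 616 and 835 bp at 24 months, against 1555 and 1843 bp at 4 months (log2 change -1.04 ± 0.22, adjusted p = 0.348 in limma). A region on chromosome 10 from 80645331 to 80646727 was also shorter, with 690 and 662 bp at 24 months, against 1397 and 1146 bp at 4 months.

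Leaving out any 1 of the 4 libraries gave calls where the full set gave none, and the cause was not tested. With 24-month replicate 7 left out, limma called 17 flanked regions, all longer at 24 months, against a background of 0.578%. Without 24-month replicate 8 it called 4 (background 0.0994%), without 4-month replicate 7 it called 3 (0.355%) and without 4-month replicate 8 it called 1 (0.0943%). The lone library of an age was there assumed to vary like the others. In each of these fits the share of flanked regions called was below the share of all regions tested. The latter again include regions without a peak in every library, so that order is partly fixed by the choice of regions. The chromosome 3 region was called in all 4, with limma's adjusted p from 1.86e-06 to 0.0463.

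For H3K36me3 within 5 kb, limma called 0 of 4852 flanked regions, against a background of 0% of 7634 regions tested. In simulated data with the spread of these libraries, this fit recovered 0 of 100 regions at a log2 change of 1 or of 3. Having no calls therefore cannot show that H3K36me3 was unchanged. At an unadjusted p below 0.05, limma had 5 flanked regions longer (0.103%) and 6 shorter (0.124%) at 24 months (background 0.0917% and 3.71%). The median change was -0.01, against -0.12 over all regions tested; with libraries centred the medians were -0.20 and -0.31. Within title number 18 the median was 1.09. Every 24-month library exceeded every 4-month library at 142 flanked regions (2.93%) and the reverse held at 82 (1.69%), against backgrounds of 2.7% and 5.4%. These directions are not even-handed, because 3 libraries at 24 months could meet the rule alone and 2 at 4 months could not; 22 flanked regions did so. With libraries centred the shares were 6.47% longer and 11.6% shorter, against 5.65% and 14.6% of all regions tested, so the more frequent direction turned round. With the same number of peaks taken from every library they were 6.60% and 1.46%, against 6.96% and 2.2% of all regions tested.

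The regions whose H3K36me3 was longer at 24 months by the widest margin had none in the 4-month libraries counted. They belong to the 22 that entered through the 24-month libraries alone, while the 195 narrow H3K27me3-free regions marked in both 4-month libraries and in none at 24 months were barred by the rule. Their contrast is thus fixed in part by the choice of regions and is given as a description. On chromosome 3 from 57096303 to 57099350, H3K36me3 covered 1149, 3395 and 1303 bp at 24 months, against 0 and 0 bp at 4 months. H3K4me3 there was also longer in both 24-month libraries, with 2172 and 3048 bp, against 1580.0 and 1487 bp at 4 months. On chromosome 8 from 74658474 to 74661449, H3K36me3 covered 2287, 973 and 2214 bp at 24 months, against 0 and 0 bp at 4 months. H3K4me3 overlapped between the ages at that region, with 2222 and 2827 bp at 24 months, against 2477 and 2323 bp at 4 months. In the other direction, a region on chromosome 19 from 6060460 to 6062628 had 0, 99 and 0 bp of H3K36me3 at 24 months, against 613 and 2602 bp at 4 months.

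Few flanked regions had separate values for both marks, and the shares lay near those over all flanked regions, which are 2.93% for longer and 1.69% for shorter H3K36me3. Of the 529 flanked regions with longer H3K4me3 at 24 months, 21 (3.97%) also had longer H3K36me3, which is 14.8% of the 142 in that class, and 13 had shorter H3K36me3. Of the 795 with shorter H3K4me3, 11 (1.38%) also had shorter H3K36me3, which is 13.4% of the 82, and 21 had longer H3K36me3.

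**Figure D5:**
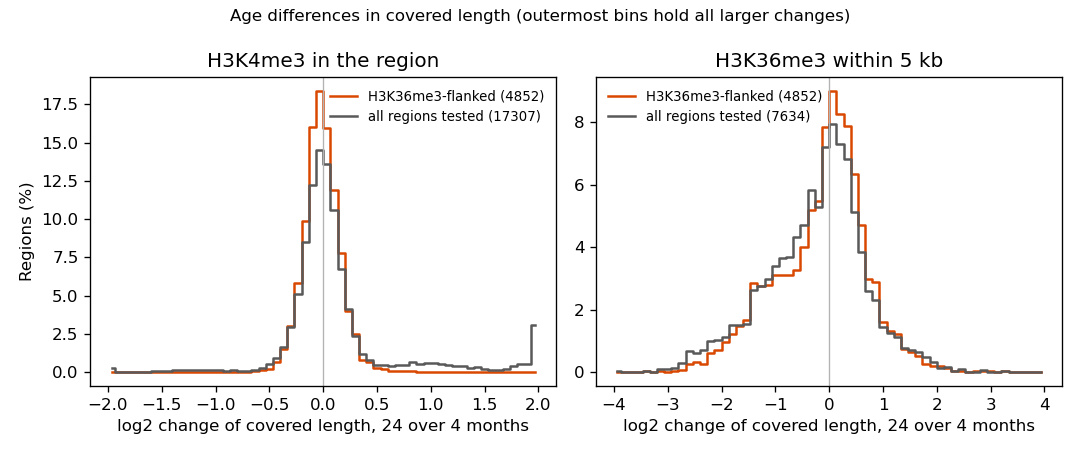
Distribution of the log2 change of covered length, 24 over 4 months, for H3K4me3 in the region and for H3K36me3 within 5 kb, as the percentage of regions in each bin. Lines show flanked regions (4852) and all regions tested (17307 and 7634). The H3K4me3 changes of flanked regions mostly lie between -0.27 and 0.26 (their 5th and 95th percentiles), and those of H3K36me3 between -1.68 and 1.09.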

How the data were processed

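Peak lists on mm9 were used as the authors deposited them. Per the submitters' processing notes the tools were CASAVA 1.4, SICER and MACS. H3K27me3 lists hold SICER islands, whose bounds lie on a 200 bp grid. Every list carries a score per peak, deposited by the authors; the sources used here do not give what it measures, the versions of SICER and MACS, the aligner, the control or the depth, so no counting interval can be given. Overlapping or abutting peaks were merged, and a touch needs 1 bp.

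Covered lengths were compared between ages by limma (version 3.58.1, under R 4.3.3; trend and empirical Bayes, Benjamini-Hochberg over all regions covered in 2 or more libraries); other steps used Python 3.11.15, numpy 2.4.6, pandas 2.3.3 and scipy 1.17.1. In simulated data with the spread of the libraries, limma recovered 20 of 100 H3K4me3 regions given a log2 change of 1 and 74 of 100 given one of 3. It recovered 0 of 100 H3K36me3 regions at either size.

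Members and lists were chosen with earlier results of these data known. Named regions were the widest and narrowest, those of most separate age values, those with most or least H3K36me3 and those of highest score and length; the regions printed are part of these. Gene lists and cell type markers could not be applied without an mm9 annotation. Alternatives changed thresholds, pseudocount, scaling, distance and libraries.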

Additional observations from a re-analysis of the deposited data

Results flagged for a closer look

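The H3K36me3 library of 4-month replicate 4, left out of the choice of regions and the main comparisons because it stood apart, still had signal at the flanked regions. Its peaks lay within 5 kb of 163 flanked regions (3.36%), against 64 unflanked regions (1.03%). At the 2074 regions whose side was set by the 24-month libraries, it had H3K36me3 on that side only at 109 and on the opposite side only at 2.

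Islands of the H3K27me3 library of 4-month replicate 1, left out likewise, touched 10 flanked regions (0.206%), against 45 unflanked regions (0.724%) and 214 of the 14489 shared regions (1.48%).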

How the results depend on the processing

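The number of flanked regions, 4852, became 2781 with only peaks at or above the median score of their list, 2437 with H3K36me3 within 2 kb and 2588 with H3K36me3 in all 5 libraries; 6 other settings moved it by less than 1.5 times. The share where only a single side reached 3 or more H3K36me3 libraries, 82.7%, was 45.3% within 2 kb and 68.4% within 10 kb. In libraries taken alone, the share on a single side was 59.1% in 24-month replicate 4, 70.8% in 4-month replicate 5 and 74.1% in 4-month replicate 6. All these shares are of the 4852 regions, including those with no mark on either side at that distance or in that library. Of regions marked on 1 or both sides, the shares in the same libraries were 90.0%, 82.7% and 74.9%. Otherwise, the cause of these moves was not tested. For H3K4me3, calls ranged from 1 to 17 when each library was left out, and stayed at 0 in the other 7 settings; the median change was -0.15 within title number 18, and ranged from -0.10 to 0.07 with each library left out. For H3K36me3, the median was 0.97 with all 6 libraries (-0.01 without 4-month replicate 4) and 1.09 within title number 18, and ranged from -0.82 without 4-month replicate 5 to 0.62 without 4-month replicate 6 when each library was left out. Title number 18 holds 1 library per age and mark, so no test was possible there. Against regions with no H3K36me3 within 10 kb, the difference in the share at the score ceiling was 35.3 points in place of 20.7. The share at the ceiling, the mean percentile (a difference of 3.78 points), the settings for the shares of non-overlapping regions and the difference in H3K27me3 by side were chosen after seeing the data.

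With the replicate block, limma called 0 flanked regions for either mark; the median change was -0.02 for H3K4me3 and 0.31 for H3K36me3. Deviations of same-numbered libraries correlated at -0.02 over 14489 regions (H3K4me3, numbers 7 and 8) and -0.04 over 4852 regions (H3K36me3, numbers 5 and 6). Region by region, same-numbered libraries thus did not deviate together, but such a correlation does not measure a shift common to all regions. Of these numbers, only H3K4me3 number 7 had the same title number, 18, at both ages. At 24 and 4 months, H3K4me3 number 8 had 19 and 21, H3K36me3 number 5 had 17 and 18, and number 6 had 18 and 20. For H3K36me3, the block and the correlation therefore did not pair libraries by title number. In median length, H3K36me3 number 5 lay below number 6 at both ages (1916.5 and 2185.5 bp at 24 months, 766.5 and 2902.5 bp at 4 months). For H3K4me3 the order of numbers 7 and 8 differed between the ages. Both libraries that stood apart carried title number 16. So did the H3K36me3 library of 24-month replicate 4, whose 68.5 Mb was the least covered by an H3K36me3 list at 24 months. Whether the title numbers mark a batch was not tested beyond the values within number 18. Unknown depth limits what a missing peak means.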

Other observations

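Flanked regions lay closer to other H3K4me3 regions than unflanked ones did. The median gap to the nearest shared H3K4me3 region was 19275.5 bp for flanked regions, against 37069 bp for unflanked regions. At one-sided regions, a neighbouring shared region lay within 5 kb on the H3K36me3 side at 4.71% and on the other side at 10.5%.

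Some stretches of 1 Mb held many flanked regions; these were picked after their values were seen. Chromosome 10 from 79000001 to 80000000 held 32 flanked regions among 39 narrow H3K27me3-free ones, and chromosome 7 from 52000001 to 53000000 held 29 of 39. The median over the 1275 stretches with any was 2.

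On chromosome 9, a pair of neighbouring flanked regions with no shared H3K4me3 region between them, 33909 bp apart, both had longer H3K4me3 at 24 months. The region from 5308320 to 5311010 had 1983 and 2691 bp at 24 months, against 1611 and 1599 bp at 4 months, and H3K36me3 of 1187, 1262 and 1165 bp at 24 months, against 0 and 0 bp at 4 months. It entered through the 24-month H3K36me3 libraries alone, so that contrast is partly fixed by the choice of regions. The region from 5344920 to 5347781 had H3K4me3 of 1970.0 and 2487 bp at 24 months, against 820 and 1309 bp at 4 months. Its H3K36me3 was 1516, 0 and 0 bp at 24 months, against 320 and 591 bp at 4 months, so the ages overlapped.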
